A study of Homo sapiens with 12 samples.

Results

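The genes followed in NCM460 cells belong to epithelial antimicrobial defense: S100A8, S100A9, S100A7, S100A12, LCN2, PI3, SLPI, DEFB1, CAMP and RNASE7. They were taken by name from the expression table, where each of the 10 matched 1 row among 58735 genes. Over the 12 libraries SLPI, S100A9 and LCN2 were abundant. RNASE7, PI3 and S100A8 averaged at least 1 FPKM (fragments per kilobase of gene length, scaled to sequencing depth). PI3 and S100A8 reached that mean only through the libraries with HTRA2 knocked down, and in medium they overlapped DEFB1 and CAMP. S100A7, S100A12, DEFB1 and CAMP stayed below that mean over the 12 libraries. With HTRA2 knocked down, 8 of the 10 rose above the level in cells given TNF-α alone, beside 9.35% of all genes tested. Among the 8, S100A7 passed the filter at a mean of 0.1 FPKM only through the knockdown group, so this count is no support by itself. TNF-α itself raised S100A9 and LCN2, 2 of the 10, beside 3.22% of all genes. With the compound bufotenidine 0 of the 10 passed the threshold, in a comparison where 0.0332% of all genes were called higher.

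Surface epithelia defend themselves with small secreted proteins that kill microbes directly, starve them of metals or restrain proteases. S100A8 and S100A9 together form calprotectin, which binds zinc and manganese and is measured in stool as a marker of intestinal inflammation, although neutrophils are its best known source. S100A7 (psoriasin) and S100A12 (calgranulin C) are related calcium-binding proteins. LCN2 (lipocalin-2) captures bacterial siderophores and so withholds iron. PI3 (elafin) and SLPI inhibit serine proteases such as neutrophil elastase through a WAP domain. DEFB1 is a β-defensin, CAMP is the precursor of the cathelicidin peptide LL-37, and RNASE7 is an antimicrobial ribonuclease of the skin and urinary tract. Cytokines such as TNF-α, IL-1 and IL-17 are known to induce several of these genes through NF-κB, its co-factor NFKBIZ and C/EBP factors, whereas DEFB1 is generally regarded as constitutive.

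RNA was sequenced from 12 libraries, 3 in each of 4 groups, all of the NCM460 cell line, which the labels describe as normal colonic epithelium of human origin. The groups were wild-type cells in medium, wild-type cells with TNF-α, wild-type cells with TNF-α and Bufotenidine (the study's 5-OH-TMT), and TNF-α-treated cells with the genotype HTRA2 knockdown. HTRA2 is a mitochondrial serine protease. TNF-α dose and treatment time are not given in the sources used here. Neither is it stated whether the knockdown libraries carried 1 siRNA or 3 different ones, nor whether the cells given only TNF-α had been transfected with a control siRNA. The study names cells with a control siRNA (si-CTRL) as the comparator of its knockdown, the labels of these libraries name none, and the knockdown is compared here with the wild-type cells given TNF-α, so an effect of transfection and an effect of the knockdown cannot be told apart. Nothing says that the 3 libraries of a group came from separate cultures, and the p-values then measure the spread between these libraries, which may be technical.

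Between 31008429 and 37624399 reads per library fell on genes, and a count of 3 reads in a gene of 1 kb corresponds to about 0.09 FPKM, a limit that covers counting error only. Whole read counts could be recovered from the FPKM and are given where a level was low. HTRA2 was at 7.18 to 7.44 FPKM in the knockdown libraries and at 13.96 to 15.4 with TNF-α alone, a ratio of 0.502. TNFAIP3, a standard target of TNF-α, was 23.3 times higher with TNF-α than in medium. Knockdown library 2 stood apart from the other two: the SD of log2 differences over 11185 genes was 0.339 and 0.359 against them and 0.258 between them, although medium libraries 2 and 3 differed as much (0.354). Ratios of the 10 genes in the knockdown are therefore given with and without it, and other knockdown values with all 3 libraries. General epithelial genes were expressed (the 8 markers EPCAM, CDH1, KRT8, KRT18, KRT19, CLDN4, CLDN7 and ESRP1 summed to 2237 to 2819 FPKM over the 12 libraries), but 11 of 12 colon markers had a mean under 1 FPKM, and CDX2, CA1 and SLC26A3 had no read in any library. Keratins of squamous and basal epithelium such as KRT5 and KRT17 were abundant, at 112 to 184 and 102 to 327 FPKM. Of 16 neutrophil and myeloid markers none had a mean of 1 FPKM, and ELANE, FCGR3B, MNDA, CEACAM8, TYROBP and SPI1 had no read in any library.

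Members lie in 2 clusters of the genome, 4 of them on chromosome 1 and 2 on chromosome 20 (GRCh38 coordinates of the deposited table). S100A9 (ENSG00000163220, plus strand, 153357854 to 153361027), S100A12 (ENSG00000163221, minus, 153373706 to 153375649), S100A8 (ENSG00000143546, minus, 153390032 to 153391188) and S100A7 (ENSG00000143556, minus, 153457744 to 153460701) span 102.8 kb of chromosome 1. PI3 (ENSG00000124102, plus, 45174876 to 45176544) and SLPI (ENSG00000124107, minus, 45252239 to 45254564) span 79.7 kb of chromosome 20. LCN2 (ENSG00000148346, plus, 128149071 to 128153455) lies on chromosome 9 and CAMP (ENSG00000164047, plus, 48223347 to 48225491) on chromosome 3. RNASE7 (ENSG00000165799, plus, 21042226 to 21044234) lies on chromosome 14, over its whole 2009 bases within NDRG2 on the opposite strand. The library kit as named does not mark strand, so reads of RNASE7 and NDRG2 cannot be told apart where their exons coincide.

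Sequences upstream of an annotated start are shown for 4 genes that rose together. They are parts of the windows in which binding motifs were sought. They come from RefSeq (GRCh38.p14), read 5′ to 3′ on the gene's strand, and leave out annotated exons of the gene. The stretch of S100A7 therefore ends before the TATA box letters reported for its window. That of LCN2 lies within the gene as annotated, upstream of a later start. Capitals mark matches, on either strand, to the C/EBP motif TTNNGNAAT, the AP-1 motif TGANTCA, the TATA box TATAAA or the κB consensus. A STAT motif, TTCNNNGAA, was also sought.
S100A9, chr1:153357604-153357853, plus strand: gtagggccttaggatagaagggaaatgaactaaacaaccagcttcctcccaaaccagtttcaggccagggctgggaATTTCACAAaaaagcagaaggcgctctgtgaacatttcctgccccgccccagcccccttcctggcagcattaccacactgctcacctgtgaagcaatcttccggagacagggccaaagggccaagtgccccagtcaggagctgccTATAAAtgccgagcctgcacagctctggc
S100A8, chr1:153391189-153391438, minus strand: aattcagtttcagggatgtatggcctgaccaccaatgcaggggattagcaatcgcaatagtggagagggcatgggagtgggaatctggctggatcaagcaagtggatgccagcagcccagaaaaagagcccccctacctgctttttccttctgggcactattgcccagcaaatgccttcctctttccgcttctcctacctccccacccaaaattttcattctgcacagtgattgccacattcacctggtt
S100A7, chr1:153460702-153460901, minus strand: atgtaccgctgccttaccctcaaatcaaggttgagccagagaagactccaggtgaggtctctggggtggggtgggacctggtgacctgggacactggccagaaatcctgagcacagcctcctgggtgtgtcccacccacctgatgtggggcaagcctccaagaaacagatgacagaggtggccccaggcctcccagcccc
LCN2, chr9:128149265-128149440, plus strand: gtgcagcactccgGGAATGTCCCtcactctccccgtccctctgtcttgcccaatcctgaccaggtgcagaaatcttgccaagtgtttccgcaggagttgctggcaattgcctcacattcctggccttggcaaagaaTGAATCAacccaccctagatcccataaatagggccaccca

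Windows from 250 bases before to 50 bases after the start were matched for 7 of the 10 genes (S100A8, S100A9, S100A7, S100A12, LCN2, CAMP and RNASE7). No window was matched for PI3 or SLPI, and the chromosome of DEFB1 was left out of the search. The TATA box letters were found for S100A8, S100A9, S100A7 and S100A12, 4 of 7 genes, and in 11.6% of all 34943 windows of that length. In S100A9 they lie at position -29 from the start, in S100A7 at -28, in S100A12 at -8, and in S100A8 at -29 and -126 from 2 of its 3 annotated starts, not the one whose upstream sequence is shown. The AP-1 letters occurred in S100A12, LCN2 and RNASE7 (7.72% of all windows), those of C/EBP in S100A9 and RNASE7 (11%), the κB consensus in LCN2 at -175 (11.3%), and those of STAT in 0 of the 7 (7.66%). These matches describe letters in a window and were not tested as binding sites.

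At rest the secreted inhibitor SLPI was the most abundant of the 10 per length. Its FPKM was 85.8, 96.3 and 77.9 in the medium libraries, which ranked it 450 from the top among 25950 genes with a read. S100A9 followed with 29.7, 38.5 and 30.5 FPKM, and LCN2 with 9.32, 12.3 and 10.997. These 3 genes did not overlap one another in level, and together they made up 96.4% to 97.8% of the summed FPKM of the 10 in each of the 12 libraries. RNASE7 stood at 2.06, 2.43 and 2.49 FPKM. PI3 (0 to 0.756), DEFB1 (0.256 to 0.652), S100A8 (0.279 to 0.344) and CAMP (0.0411 to 0.387) overlapped in medium and could not be ordered, with 14 reads or fewer in each library. S100A7 and S100A12 had 0 reads in the 3 medium libraries, and 3 reads would have been 0.162 to 0.174 and 0.167 to 0.180 FPKM.

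The partners of calprotectin were far from equal in level. In medium the FPKM of S100A9 was 86.3 to 138 times that of S100A8, and in reads, without division by length, 49.5 to 79.1 times. The length used for S100A8, 1006 bases, joins the exons of 3 transcripts of 495 to 717 bases, while S100A9 has 1 transcript of 577 bases, so the FPKM of S100A8 is low in relation to its own transcripts. LCN2 is affected likewise, as its length of 1598 bases joins 7 transcripts of 427 to 877 bases. Its FPKM and its share of the summed FPKM are low in that sense. In the knockdown LCN2 had 30066 reads over the 3 libraries, against 23406 for S100A9 and 20118 for SLPI.

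**Figure D1:**
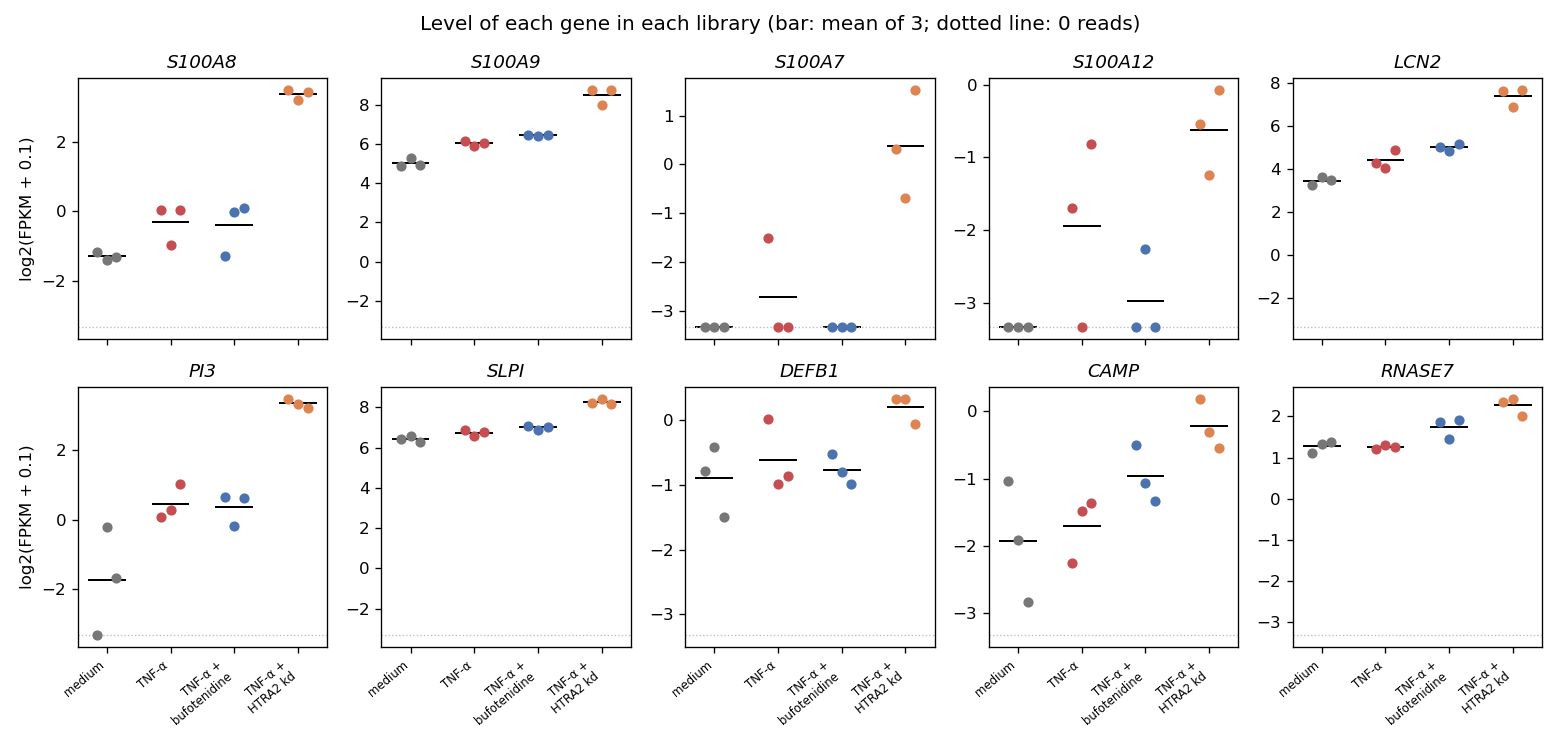
Level of each of the 10 genes in each of the 12 libraries, as log2(FPKM + 0.1), by group, with 1 point per library and a bar at the mean of 3; the dotted line is the value of 0 reads, and the vertical scale differs between genes. The knockdown libraries lie above every other library for S100A8, S100A9, S100A7, LCN2, PI3, SLPI and RNASE7. S100A7 and S100A12 have most of their libraries outside the knockdown at 0 reads.

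The first comparison asked what TNF-α did to these genes. Differences were tested with limma on log2(FPKM + 0.1) over 18079 genes with a mean of at least 0.1 FPKM, with Benjamini-Hochberg adjustment, and a gene was called at an adjusted p under 0.05. TNF-α raised S100A9 and LCN2, both about 2.0-fold, so that 2 of the 10 genes were called higher and 0 lower, where 3.22% of all genes tested were called higher and 0.885% lower. In 5 of the 10 (S100A8, S100A9, LCN2, PI3 and SLPI) every TNF-α library lay above every medium library, as it did in 11.1% of all genes. The study's own rule asks for a 2-fold difference together with an unadjusted p no higher than 0.05, and under it 3 of the 10 rose (S100A9, PI3 and S100A12), beside 1.76% of all genes. In bulk RNA, a change in the number of cells that express a gene cannot be told apart from a change in RNA per cell.

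S100A9 was at 70.7, 60.4 and 66.6 FPKM with TNF-α, all above the 29.7 to 38.5 of medium. The means were 65.9 ± 5.19 and 32.9 ± 4.85 (SD, n = 3 each), which differed by 1.01 on the log2 scale (standard error 0.17; limma, adjusted p = 0.0043). The call held when any 1 of the 6 libraries was left out. LCN2, the iron-withholding lipocalin, was at 19.6, 16.3 and 28.97 FPKM with TNF-α, again above all medium libraries. The fitted difference was 0.95 on the log2 scale (standard error 0.23; limma, adjusted p = 0.0374). This call is a narrow one: it was lost without any single medium library (adjusted p = 0.137, 0.0637 and 0.0914 without libraries 1, 2 and 3), without TNF-α library 1 (0.0847) and without TNF-α library 3 (0.139), and stayed only without TNF-α library 2 (0.0293). The exact two-sided permutation test of 3 libraries against 3 gave p = 0.1 for each of the 5 genes without overlap, the smallest it can give.

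Reads of S100A8, the other calprotectin subunit, numbered 34, 13 and 35 with TNF-α against 12, 9 and 10 in medium. That is 0.756 ± 0.296 against 0.309 ± 0.033 FPKM (SD, n = 3). The fitted difference was 0.999 on the log2 scale, with a 95% interval of 0.25 to 1.75 and an adjusted p of 0.158 (limma). The estimate was nearly that of S100A9, but at this depth it did not pass. The FPKM ratio of S100A9 to S100A8 was 71.3 to 146 with TNF-α and overlapped that of medium.

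PI3 (elafin) varied widely between medium libraries. It had 0, 14 and 4 reads in medium and 20, 20 and 42 with TNF-α, with a fitted log2 fold change of 2.20 (95% interval 0.94 to 3.47, adjusted p = 0.0586, limma). The ratio of its summed reads was 4.31, with a counting interval of 2.56 to 7.62. Counting intervals, here and below, leave out the spread between libraries. Medium library 2 held 14 of the 18 reads, and without it the adjusted p was 0.0037. SLPI, the other WAP inhibitor, was at 117, 96.3 and 109 FPKM with TNF-α, 1.24 times the medium mean (log2 fold change 0.31, adjusted p = 0.141, limma). Its lowest TNF-α library and its highest medium library were both at 96.3 FPKM when rounded.

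S100A12 had 4, 0 and 9 reads with TNF-α and none in medium, which set against a floor of 3 reads per library is at least 1.29-fold higher. The call was made without TNF-α library 2 (adjusted p = 0.046, limma) and not with it (0.279). S100A7 had 5, 0 and 0 reads with TNF-α, too few for a fold. DEFB1 (log2 fold change 0.28, adjusted p = 0.761), CAMP (0.22, 0.877) and RNASE7 (-0.02, 0.979) had overlapping groups. RNASE7 was measured well enough to bound any change, at 2.29 ± 0.0882 against 2.33 ± 0.234 FPKM (SD, n = 3) and a 95% interval of -0.33 to 0.30 on the log2 scale. The median log2 fold change of the 10 was 0.78, or 0.34 with S100A7 and S100A12 set to what the floor allows, and that of all genes tested was -0.00.

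The second comparison asked what bufotenidine did on top of TNF-α. None of the 10 genes was called (limma, adjusted p under 0.05), in a comparison where few genes were: 0.0332% of those tested were called higher and 0.00553% lower. At an unadjusted p under 0.05, 4 of the 10 passed (S100A9, LCN2, SLPI and RNASE7, each higher), and 20.1% of all genes did in either direction. The bufotenidine libraries lay above those with TNF-α alone for S100A9, SLPI, CAMP and RNASE7, 4 of the 10, and for 16.3% of all genes. Under the study's rule 0 of the 10 were higher, beside 0.686% of all genes. Limma's voom on the recovered reads also called 0 of the 10. A fit to the 2 groups alone called 1, S100A9, with an adjusted p of 0.0414, and in its other fits the adjusted p of S100A9 lay between 0.129 and 0.41. Over all genes the fit to the 2 groups alone called 473 higher and 438 lower, and voom 139 and 97. The main fit called 6 and 1.

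S100A9 was at 88.7, 85.9 and 88.8 FPKM with bufotenidine, a coefficient of variation of 1.9%, above the 60.4 to 70.7 with TNF-α alone. The log2 fold change was 0.42 with a 95% interval of 0.05 to 0.79 (adjusted p = 0.206, limma). LCN2 was at 32.0, 28.3 and 36.2 FPKM, and its lowest value fell just under TNF-α library 3 at 28.97 (log2 fold change 0.61, 95% interval 0.11 to 1.10, adjusted p = 0.177). SLPI was at 135, 118 and 131 FPKM (0.26, 0.03 to 0.48, adjusted p = 0.2). RNASE7 was at 3.53, 2.63 and 3.67 FPKM, above 2.20 to 2.38 with TNF-α (0.48, 0.17 to 0.79, adjusted p = 0.122). The 95% intervals of these 4, unadjusted for the number of genes, lie above 0.

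S100A8 did not follow its partner in estimate. It had 11, 32 and 35 reads with bufotenidine, spanning the 13 to 35 reads seen with TNF-α alone (log2 fold change -0.11, 95% interval -0.85 to 0.64, adjusted p = 0.898, limma). Library 1 was the low one, and there S100A9 reached 285 times the FPKM of S100A8, against 95.9 and 91.9 times in libraries 2 and 3. PI3 was at 30, 16 and 30 reads (-0.09, -1.36 to 1.17). DEFB1 (10, 8 and 7 reads) and CAMP (16, 10 and 8 reads) gave log2 fold changes of -0.16 and 0.74 (adjusted p = 0.816 and 0.355). S100A7 had no read in the 3 bufotenidine libraries and S100A12 had 2 reads in one of them, against 5 and 13 reads over the TNF-α group. The ratio for S100A12 was 0.152 with a counting interval of 0.0166 to 0.67, and limma gave an adjusted p of 0.345. The median over the 10 was 0.08 on the log2 scale, or 0.13 with S100A7 at its bound, and 0 over all genes.

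**Figure D2:**
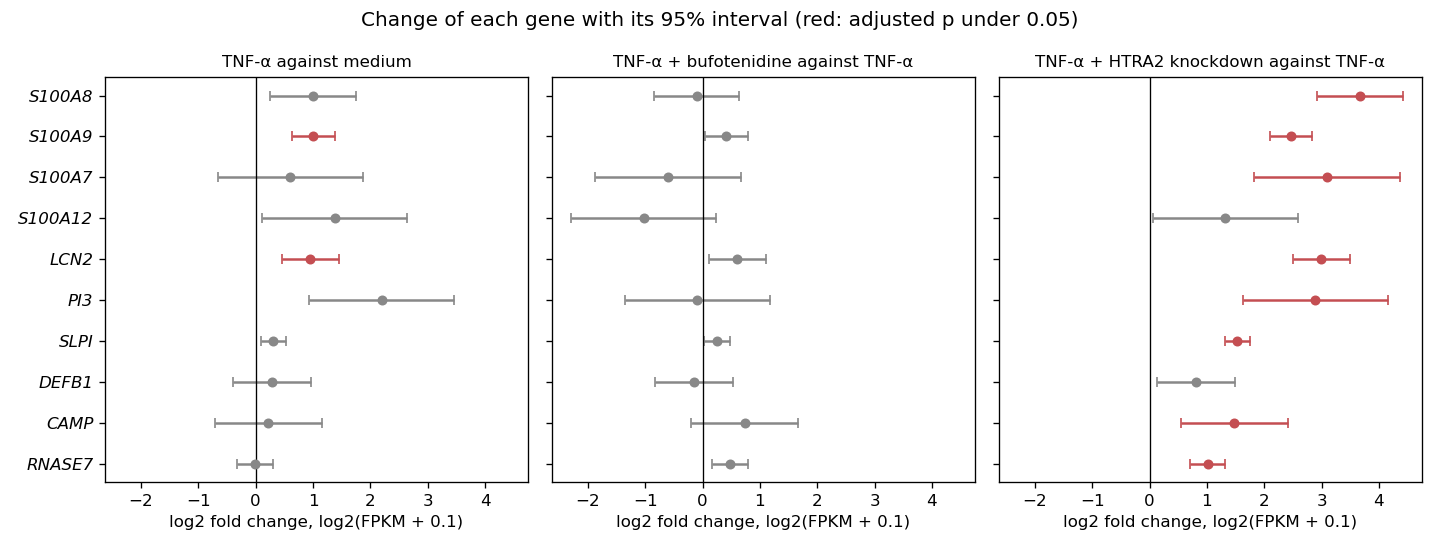
Log2 fold change of each of the 10 genes in the 3 comparisons, on log2(FPKM + 0.1), with the 95% interval of the limma fit; red marks an adjusted p under 0.05. Red points number 2, 0 and 8 from left to right, and the knockdown panel has 10 of 10 estimates above 0.

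The third comparison set the HTRA2 knockdown with TNF-α against TNF-α alone, using the same 3 TNF-α libraries as the other two comparisons, and here most of the genes rose. Limma called 8 of the 10 higher (S100A8, S100A9, S100A7, LCN2, PI3, SLPI, CAMP and RNASE7) and 0 lower, where 9.35% of all genes tested were called higher and 8.08% lower. Groups did not overlap for those 8, and for 17.5% of all genes in that direction. Under the study's rule 9 of the 10 were higher, beside 3.08% of all genes. The median log2 fold change over the 10 was 2.0, and that of all genes tested was -0.00. Among the 11185 genes with a mean of at least 1 FPKM, S100A8 had the largest fitted change of all, LCN2 ranked 5, PI3 8, S100A9 15, SLPI 60 and RNASE7 202. S100A8 and PI3 reached that mean only through the knockdown group, so their ranks are in part fixed by it. All 10 passed the filter at 0.1 FPKM, but S100A7 and S100A12 did so only through the knockdown group, and such a gene had to differ, so these counts, ranks and medians describe the genes and are no support by themselves.

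Both subunits of calprotectin rose, S100A8 more than S100A9. S100A9 was at 430.4, 258 and 431 FPKM in the knockdown libraries, a mean of 373 ± 99.8 (SD, n = 3), against 60.4 to 70.7 with TNF-α alone. This was a ratio of 5.67, or 2.46 on the log2 scale (standard error 0.17; limma, adjusted p = 8.88e-06), and it made S100A9 the gene ranked 78 from the top of the knockdown group. Library 2 was the low one, at 59.9% of the mean of the other two, and without it the ratio was 6.54 (log2 fold change 2.71). S100A8 had 403, 334 and 390 reads against 34, 13 and 35, or 10.3 ± 0.989 against 0.756 ± 0.296 FPKM (SD, n = 3). Its ratio was 13.6, or 3.67 on the log2 scale (standard error 0.34; limma, adjusted p = 3.88e-05), with 14.4 and 3.75 when library 2 was left out. The FPKM of S100A9 was accordingly 28.0 to 40.6 times that of S100A8 in the knockdown, below the 71.3 to 146 of the TNF-α libraries in every library (exact two-sided permutation p = 0.1, the smallest possible).

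S100A7 and S100A12, the other S100 proteins of the cluster, stayed low. S100A7 had 22, 10 and 54 reads in the knockdown and 5, 0 and 0 with TNF-α alone, a read ratio of 16.7 with a counting interval of 6.87 to 52.6 (adjusted p = 0.0035, limma). S100A7 passed the filter at 0.1 FPKM only through the knockdown group, so its call is no support by itself. All 5 TNF-α reads came from library 1; without it the knockdown was at least 8.94-fold above the floor of 3 reads per library. Without knockdown library 2 its FPKM ratio moved from 17.4 to 23.0. The near-identical neighbor S100A7A had 9 reads over the 3 knockdown libraries and 0 elsewhere, and whether the counting moved reads between them was not tested. S100A12 had 11, 6 and 16 reads against 4, 0 and 9 (read ratio 2.46, counting interval 1.26 to 5.09, adjusted p = 0.144, limma), and its groups overlapped.

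LCN2 rose 8.01-fold. It was at 199.6, 118 and 202 FPKM in the knockdown, a mean of 173 ± 47.9 (SD, n = 3), with all 3 libraries above the 16.3 to 28.97 of TNF-α alone (2.995 on the log2 scale, standard error 0.23; limma, adjusted p = 1.42e-05). Knockdown library 2 was again low, at 58.7% of the mean of the other two, and the ratio without it was 9.29. Relative to the same mean of the other two, library 2 was lower still in S100A7 (26.5%) and S100A12 (44.7%), at 84.7% in S100A8 and 86.7% in CAMP, and at 98.8% in PI3, 115% in DEFB1, 117% in SLPI and 118% in RNASE7. Without library 2 the ratio to TNF-α alone was 7.60 for PI3, 2.74 for SLPI, 1.96 for RNASE7, 3.73 for CAMP, 1.72 for DEFB1 and 3.18 for S100A12, and 7 of the 10 genes were called.

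The WAP inhibitors rose as well. PI3 had 231, 209 and 194 reads against 20, 20 and 42, or 10.1 ± 0.939 against 1.34 ± 0.540 FPKM (SD, n = 3), a ratio of 7.57 (log2 fold change 2.89, adjusted p = 0.005, limma). SLPI was at 302, 345 and 286 FPKM against 96.3 to 117, a ratio of 2.90 with the smallest adjusted p of the 10 (log2 fold change 1.53, standard error 0.10, adjusted p = 6.5e-06). Since S100A9 and LCN2 rose further, SLPI made up 30.1% to 46.1% of the summed FPKM of the 10 in the knockdown, below the 51.7% to 54.9% with TNF-α alone. That sum was 887 ± 120 FPKM (SD, n = 3) in the knockdown and 200.3 ± 19.8 with TNF-α, a ratio of 4.43 (exact two-sided permutation p = 0.1, the smallest possible).

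**Figure D3:**
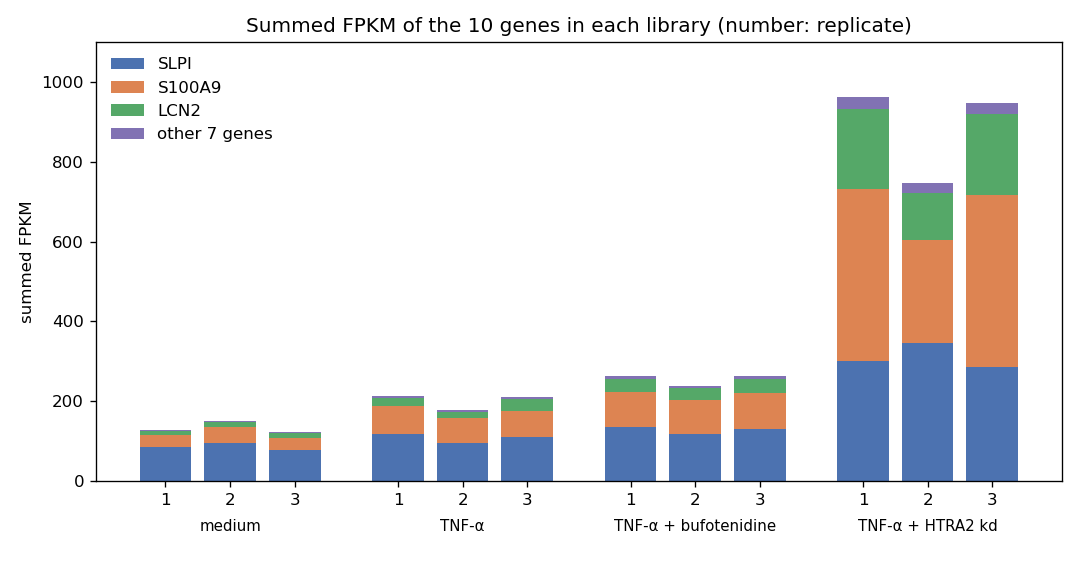
FPKM of SLPI, S100A9 and LCN2 and the sum of the other 7 genes, stacked from 0, in each of the 12 libraries (number: replicate). The knockdown libraries reach 748 to 963 FPKM, and library 2 is lower through S100A9 and LCN2 while its SLPI is the highest of the 3.

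RNASE7 and the cathelicidin gene CAMP rose, from low levels, and DEFB1 did not pass the test. RNASE7 was at 5.03, 5.31 and 3.95 FPKM against 2.20 to 2.38 (ratio 2.08, log2 fold change 1.01, standard error 0.14, adjusted p = 0.000558, limma). NDRG2, which overlaps it on the other strand, differed by 0.40 on the log2 scale (limma, adjusted p = 0.0113), and its part in the RNASE7 value was not tested. CAMP had 28, 19 and 16 reads against 3, 6 and 8 (read ratio 3.59, counting interval 2.07 to 6.54, log2 fold change 1.48, adjusted p = 0.0325, limma). Its call was lost without knockdown library 1 (adjusted p = 0.125) or 2 (0.0578) and without TNF-α library 1 (0.114) or 2 (0.0644). DEFB1 (ENSG00000164825, chromosome 8, minus strand, 6870575 to 6878022) is covered by a noncoding RNA gene on the opposite strand that had no read in any library. It had 20, 20 and 15 reads against 16, 6 and 8 (log2 fold change 0.82, 95% interval 0.14 to 1.5, adjusted p = 0.0944, limma), and TNF-α library 1 lay within the range of the knockdown. Without that library its adjusted p was 0.0293.

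The genes around the 2 clusters did not all move with them in the knockdown, where 9.35% of all genes tested were called higher and 8.08% lower. Within 150 kb of the chromosome 1 cluster lie 12 other protein-coding genes, of which 7 were tested. PGLYRP4, a peptidoglycan recognition protein at 0.308 FPKM in the knockdown, was called higher (log2 fold change 1.53, adjusted p = 0.0311) and S100A2 lower (-0.43, 0.0116). PGLYRP4 passed the filter only through the knockdown group. S100A6, S100A16, S100A5, S100A4 and S100A3 were not called. Around PI3 and SLPI, 1 of 5 neighbors tested was called, SDC4, a heparan sulfate proteoglycan of the cell surface. It was at 444 FPKM with TNF-α and 783 in the knockdown (0.81, 9.97e-05). These neighbors were named after their values were seen.

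Other genes of antimicrobial defense were mostly silent in these cells. Of 34 further antimicrobial genes, 15 had no read in any library and 5 passed the filter. In the knockdown 4 of those 5 were higher and 0 lower, where 9.35% of all genes tested were called higher. The median log2 fold change of the 5 was 1.53. CCL20, a chemokine with antimicrobial activity, was at 5.74 ± 0.222 FPKM against 1.92 ± 0.440 (SD, n = 3; log2 fold change 1.56, adjusted p = 0.0009), and ANG, an angiogenic ribonuclease, at 1.64 against 1.01 FPKM (0.65, 0.0285). The remaining 2, PGLYRP2 (2.18, 0.0037) and PGLYRP4, had a mean under 1 FPKM and were named after their values were seen. Both passed the filter at 0.1 FPKM only through the knockdown group, and such a gene had to differ. The median of 1.53 is the value of PGLYRP4 itself, so this count and median are no support by themselves. With TNF-α alone, 1 of the 5 was called, CCL20, at 1.92 against 0.057 FPKM (3.67, 2.16e-06), and with bufotenidine 0 of 5.

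Most of the rest of the S100 family was not called in the knockdown, where 9.35% of all genes tested were called higher and 8.08% lower. Of 16 other S100 genes 11 were tested, and in the knockdown S100P was higher (34.7 against 19.2 FPKM, log2 fold change 0.91, adjusted p = 0.0043) and S100A2 lower (262 against 354 FPKM), while 9 were not called and the median was -0.13. With TNF-α 1 of the 11 was called, S100A4, which was lower (-0.38, 0.0413). Of 10 other WFDC-family genes 5 were tested, and WFDC2 was called higher in the knockdown (11.6 against 5.32 FPKM, 1.13, 0.000375). With TNF-α and with bufotenidine 0 of the 5 were called.

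Receptors and partners of the 10 proteins were measured alongside them. Of 18 genes 9 were tested, and 3 were called higher in the knockdown, beside 9.35% of all genes tested. PLSCR1, a phospholipid scramblase that binds SLPI, was at 34.4 against 17.8 FPKM (log2 fold change 0.95, adjusted p = 1.34e-05), and CYBA, a subunit of NADPH oxidase, at 2.86 against 1.86 (0.60, 0.0456). SLC22A17, a receptor of lipocalin-2, was at 0.516 against 0.122 FPKM (1.45, 0.0038; named after its value was seen). TLR4 (0.56, 0.169) and AGER (-0.00, 0.993), receptors for S100 proteins, were not called. With TNF-α 1 of 9 was called, EGFR, at 44.8 against 28.2 FPKM (0.66, 0.000577).

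Among transcription factors and upstream cytokine signals, 33 of 39 genes were tested. TNF-α raised 13 and lowered 1, beside 3.22% and 0.885% of all genes tested. Among those with a mean of at least 1 FPKM over the 12 libraries, the largest rises were RELB (log2 fold change 4.18, adjusted p = 9.18e-09), NFKB2 (2.40, 1.26e-07) and IL1A (1.83, 8.34e-06). IL6, below that mean and named after its value was seen, rose from 0.119 to 1.08 FPKM (2.48, 0.00081), and CEBPA was the gene that fell (-0.98, 0.000411). In the knockdown 13 were higher and 2 lower, with a median of 0.30, where 9.35% of all genes tested were called higher and 8.08% lower. NFKBIZ, the NF-κB co-factor for LCN2, rose from 2.25 to 4.58 FPKM (0.98, 0.0021) and ELF3, an epithelial ETS factor, from 21.9 to 32.4 (0.56, 0.0014). The genes that fell were PPARG (-0.28, 0.0189) and, at 0.401 against 1.08 FPKM, IL6 (-1.22, 0.0256). Of the C/EBP factors, named after their values were seen, CEBPD was called higher (22.9 against 16.8 FPKM, 0.45, 0.0422), while CEBPB, at 173 against 165 FPKM (0.07, 0.68), and CEBPA (-0.12, 0.558) were not called. With bufotenidine 0 of the 33 were called.

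**Figure D4:**
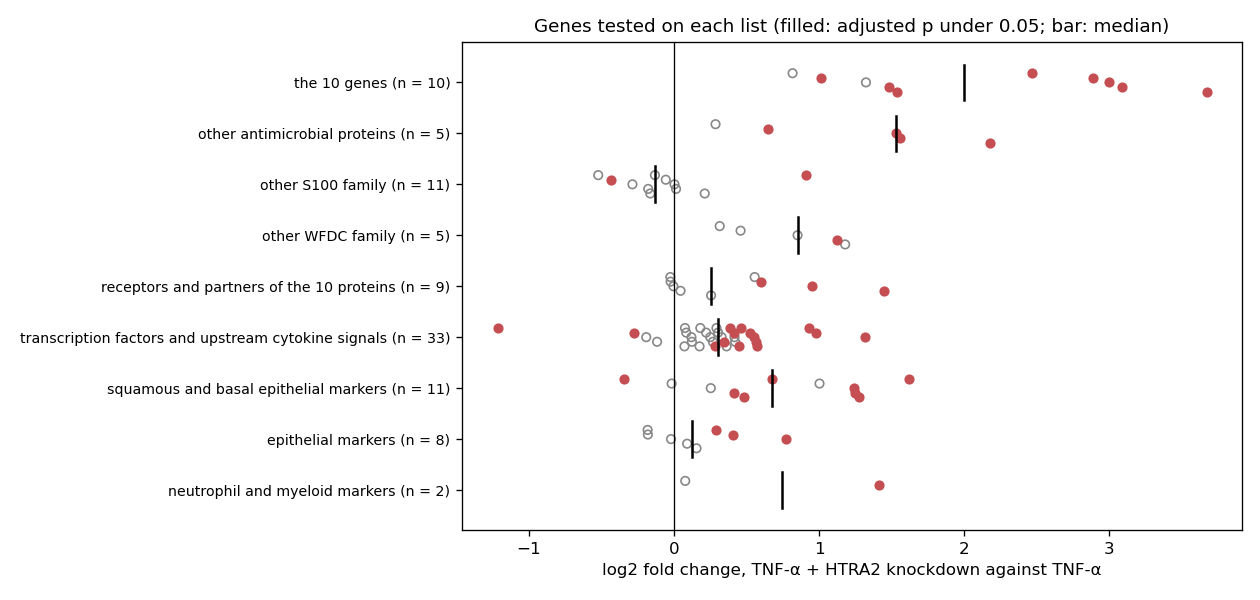
Log2 fold change between the HTRA2 knockdown with TNF-α and TNF-α alone for the 10 genes and for the tested genes of 8 lists; filled points have an adjusted p under 0.05 in limma and bars are medians. The 10 genes have a median of 2.0, the other S100 genes one of -0.13, and the 5 other antimicrobial genes one of 1.53. PGLYRP2 and PGLYRP4 among those 5 passed the filter only through the knockdown group, as S100A7 and S100A12 did among the 10.

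Markers of cell types also differed in the knockdown, where 9.35% of all genes tested were called higher and 8.08% lower. Of the squamous and basal list, 7 of 11 genes were called higher and 1 lower, and their summed FPKM was 1196 to 1406 in the knockdown and 1039 to 1075 with TNF-α. The sum was 851 to 1101 in medium and 1204 to 1291 with bufotenidine, which lies within the range of the knockdown. SPRR1B, a cornified envelope protein, differed by 1.62 on the log2 scale (limma, adjusted p = 0.0046), KRT16 by 1.27 (0.000236) and KRT6B by 1.25 (0.000758), while TP63 was lower (-0.34, 0.0318). KRT6B also rose with TNF-α (3.17, 8.71e-07). Of 8 general epithelial genes, CDH1 (0.40, 0.0011), KRT19 (0.77, 0.0044) and CLDN7 (0.29, 0.0135) were higher. CA2 was the 1 colon gene tested (0.40, 0.0067). The 16 neutrophil and myeloid markers summed to 0.564 to 1.33 FPKM in the knockdown and to 0.315 to 0.481 with TNF-α. In medium they summed to 0.481 to 0.829 and with bufotenidine to 0.550 to 0.588, and both ranges overlapped that of the knockdown. CD14, named after its value was seen, was the one of 2 tested that was called (1.41, 0.0163). Its mean was 0.397 FPKM in medium, 0.0946 with TNF-α, 0.258 with bufotenidine and 0.443 in the knockdown. Of 9 fibroblast and endothelial markers 3 were tested and 2 called, COL1A1 (1.23, 0.000126) and CDH5 (0.997, 0.0024), at under 3 FPKM in either group, and CDH5 was also higher with TNF-α (1.71, 0.000112). The part of these changes in the results for the 10 genes was not tested.

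The genes whose pattern over the 12 libraries was most like that of each abundant member were found by Pearson's r of log2(FPKM + 0.1) among 11184 genes, as a description that rests mostly on the step between the knockdown and the other groups. For S100A9 they were OAS1 (r = 0.995), an interferon-induced sensor of double-stranded RNA, LCN2 (0.992) and EFNA1 (0.989). LCN2 had OAS1 (0.994), IRF7 (0.993) and S100A9 (0.992), and S100A8 had OAS2 (0.982), PAM (0.980) and PLSCR1 (0.977). SLPI was closest to APP (0.990), TRIM22 (0.987) and MAN1A1 (0.987), and PI3 to PIM1 (0.988), HLA-E (0.968) and C15orf48 (0.959). RNASE7 had lower values, with HCAR2 (0.946), MEGF6 (0.944) and NLRC5 (0.937). S100A9 and LCN2 were each among the other's 3 closest genes.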

How the data were processed

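The authors sequenced poly(A)-selected RNA of NCM460 cells and deposited FPKM for each gene in each library, in a single table that also lists gene lengths. The submitters' processing notes list CASAVA 1.8, HISAT2 2.0.4, HTSeq 0.9.1 and hg38; the strand setting of the counting is not given in the sources used here. Gene coordinates equalled those of GENCODE 29 for 99.9% of genes. Median-of-ratios factors computed from the FPKM were the same in all 12 libraries (1.01), so the values had been scaled that way before deposit. Each value times gene length and a per-library divisor came within 0.05 of a whole number of reads in 100% of cases.

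Limma 3.58.1 in R 4.3.3 (lmFit, contrasts.fit, eBayes with trend) was fitted to log2(FPKM + 0.1) of 18079 genes whose FPKM averaged 0.1 or more, with 4 group means and 8 residual degrees of freedom, two-sided, with Benjamini-Hochberg adjustment over those genes; exact permutation tests of 3 libraries against 3 stand beside it. Fold changes on this scale understate those of low genes. Ratios are of mean FPKM. Read ratios carry exact counting intervals on reads pooled over the 3 libraries of a group, which leave out the spread between libraries. The fit was tested on simulated data with changes set only in genes of many reads. Recovery of changes in genes of few reads, such as S100A7, S100A12, DEFB1, CAMP and PI3, was not tested. All 10 genes were named, from each context list at most 3 risers and 3 fallers per comparison (mean FPKM of at least 1, adjusted p under 0.05, no overlap), and the 3 genes most like each member. A gene that this rule names is not reported here. The genes and lists were chosen with earlier results of these data known. All 3 comparisons use the same TNF-α libraries. Replicate numbers did not pair libraries: 5 of 18 same-number correlations exceeded 0.1 (range -0.37 to 0.15).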

Additional observations from a re-analysis of the deposited data

How the results depend on the processing

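The 10 alternatives with all libraries (pseudocounts of 1 and 0.01, no filter, a mean FPKM of at least 1, median of ratios, quantile normalization, voom on recovered reads, only the 2 groups compared, eBayes without trend, replicate block) were run, and each library was left out in turn. Of 468 values for single genes, 434 kept direction and side of the threshold, 16 were no longer called, 6 were newly called and 12 changed sign. The 468 include the values at the median of ratios. That setting divided every library by the same factor (1.01), so its values could hardly differ from those of the main fit. At a mean FPKM of at least 1, S100A7, S100A12, DEFB1 and CAMP were not tested, so counts there are not out of 10. In the knockdown 6 to 8 of the 10 genes were called with all libraries and 7 to 8 with 1 left out. With 1 left out, 1186 to 1853 of all genes were called higher. PI3 (adjusted p = 0.0924) and CAMP (0.0694) were lost at a pseudocount of 0.01, and CAMP without a filter (0.0784). With TNF-α, 1 gene was called instead of 2 at a pseudocount of 1, without a filter, in the 2 groups alone and without trend, as LCN2 was lost (adjusted p = 0.0505, 0.0981, 0.106 and 0.0871), and 1 to 3 with a library left out. PI3 was called with TNF-α at a mean FPKM of at least 1 (0.0269) and by voom (0.0437). With bufotenidine 1 gene was called in the 2 groups alone, and 0 otherwise. With the replicate number as a block, 2, 0 and 8 of the 10 were called, as without it.

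Signs changed, among values that were never called, when a library was left out: with TNF-α for DEFB1 (-0.036 to 0.52 on the log2 scale), CAMP (-0.23 to 0.66) and RNASE7 (-0.10 to 0.033), and with bufotenidine for S100A8 (-0.44 to 0.34), DEFB1 (-0.35 to 0.16) and PI3 (-0.29 to 0.20). The cause was not tested.

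Counts over all genes moved more. With bufotenidine 6 were higher and 1 lower, against 3 and 0 at a pseudocount of 1, 78 and 49 at a mean FPKM of at least 1, 139 and 97 by voom, 473 and 438 in the 2 groups alone, 1 and 0 without trend, 1 and 0 with the replicate block, 4 and 0 after quantile normalization, and 1 to 4 and 0 to 1 with a library left out. With TNF-α 582 were higher against 333 in the 2 groups alone, and 160 lower against 59 there, 272 by voom, 100 with the replicate block and 85 to 127 with a library left out. In the knockdown 1461 were lower against 892 in the 2 groups alone and 794 to 1484 with a library left out. At the depth used, S100A7, S100A12, DEFB1 and CAMP rest on 54 reads or fewer in any library.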
